A study of Mus musculus with 48 samples.

Results

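The 5 kidney genes Mdk, Itgb6, Tmem252, Tcf24 and Cela1, were followed across normal and Hyp mice fed a control or a low phosphorus diet. They were chosen by symbol because an earlier look at the same arrays had given them clear diet differences in both genotypes, so the diet values chose them and are described here without a test. They are 5 of the 12838 named genes measured, and 6 of the 45137 probe sets that were not controls carry their symbols. On the 430A chip these are 1416006_at for Mdk (chromosome 2), 1432281_a_at and 1422983_at for Itgb6 (chromosome 2) and 1423693_at for Cela1 (chromosome 15). On the 430B chip they are 1437595_at for Tmem252 (chromosome 19) and 1439816_at for Tcf24 (chromosome 1). All 6 probe sets exceeded the array's median signal on 24 of 24 arrays, so none entered through a single group.

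The study measured kidney RNA on Affymetrix mouse arrays. Both genotypes (normal, and Hyp, in which Phex on the X chromosome is mutated), both diets and both sexes were combined into 8 groups. The groups are normal male control, normal male low phosphorus, normal female control, normal female low phosphorus, Hyp male control, Hyp male low phosphorus, Hyp female control and Hyp female low phosphorus. Each group had 3 pools of RNA from 3 mice each, which makes 24 pools from 72 mice, and each pool was hybridised to 1 array of each chip. All mice were 10 weeks old and had received their Teklad diet for 3 days. The labels give neither the number of Hyp alleles in females nor whether normal and Hyp mice were littermates, and 1 normal female control pool alone has a strain name, C57BL/6J. Replicates are pools, so every SD, standard error and p-value below describes the spread between pools and not between single mice. In whole-kidney RNA, more or fewer cells of a type cannot be told apart from more or less RNA per cell.

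Midkine, the product of Mdk, is a secreted heparin-binding growth factor that acts through receptor-type phosphatases, syndecans, low-density lipoprotein receptor family members and integrins. Itgb6 encodes the integrin β6 subunit, an epithelial protein that pairs only with the αv subunit and releases active TGFβ from its latent complex. Tcf24 belongs to the basic helix-loop-helix family of transcription factors, whose members bind DNA as dimers at E-boxes and are held back by the Id proteins. Cela1 encodes an elastase-type serine protease, and Tmem252 encodes a small membrane protein with no function that is widely agreed on. In Hyp mice the loss of Phex raises the circulating phosphate hormone FGF23 and lowers phosphate reabsorption by the proximal tubule. A diet low in phosphorus has the opposite effect on reabsorption in normal mice.

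The upstream sequences of the genes whose levels are described below are shown for reference, because their diet differences go in both directions. Each is the 250 bases before an annotated start, 5′ to 3′ on the strand of the gene, from RefSeq (assembly GRCm38.p6). RefSeq start windows were held for 3 of the 5 genes, Itgb6 (with 2 starts), Tmem252 and Cela1. Capitals mark matches to an E-box (CANNTG, which reads the same on both strands) or a TATA box (TATAAA or its reverse complement).
Itgb6, first start, chr2:60722604-60722853, minus strand: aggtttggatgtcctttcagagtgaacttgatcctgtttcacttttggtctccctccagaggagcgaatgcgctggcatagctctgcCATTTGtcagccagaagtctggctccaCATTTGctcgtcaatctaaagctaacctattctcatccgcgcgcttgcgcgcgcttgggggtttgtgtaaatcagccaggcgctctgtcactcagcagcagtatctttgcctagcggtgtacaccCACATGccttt
Itgb6, second start, chr2:60673694-60673943, minus strand: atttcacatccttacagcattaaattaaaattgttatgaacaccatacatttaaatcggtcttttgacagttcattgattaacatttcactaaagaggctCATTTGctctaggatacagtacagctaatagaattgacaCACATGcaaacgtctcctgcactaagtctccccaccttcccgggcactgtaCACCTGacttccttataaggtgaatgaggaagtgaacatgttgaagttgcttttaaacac
Tmem252, chr19:24673758-24674007, plus strand: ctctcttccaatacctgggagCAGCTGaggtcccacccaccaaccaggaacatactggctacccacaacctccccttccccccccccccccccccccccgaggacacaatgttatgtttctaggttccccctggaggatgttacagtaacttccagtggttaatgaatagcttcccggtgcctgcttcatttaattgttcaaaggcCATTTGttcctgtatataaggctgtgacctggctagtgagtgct
Cela1, chr15:100687921-100688170, minus strand: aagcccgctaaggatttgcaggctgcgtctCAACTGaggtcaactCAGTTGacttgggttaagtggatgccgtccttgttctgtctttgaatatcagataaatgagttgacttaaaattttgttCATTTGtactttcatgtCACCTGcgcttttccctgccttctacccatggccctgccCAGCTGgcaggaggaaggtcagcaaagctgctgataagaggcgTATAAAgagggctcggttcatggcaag

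An E-box was found in all 4 windows, 3 in each Itgb6 window, 2 in that of Tmem252 and 5 in that of Cela1. The same letters occur in 66.2% of the 32851 windows of this length, so their presence does not set these genes apart. The Cela1 window holds TATAAA at 27 to 22 bases before the start, as 12.4% of windows hold this motif in either direction. The first Itgb6 window holds a match to the cyclic AMP response element core TGACG (17.8% of windows), and the Tmem252 window holds a CCAAT box (33.8% of windows). No match to the AP-1 site TGANTCA (6.75% of windows), the GC box GGGCGG (32.7%), the SMAD element GTCTAGAC (0.167%) or the hypoxia response core ACGTG (16.6%) was in these 4 windows. Both strands were searched, and a match is a run of letters and not a measured site. The GC content was 52% and 38% for the Itgb6 windows, 53.2% for Tmem252 and 48% for Cela1, against a median of 52.4% over all windows.

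The sex labels were borne out by Xist, which lay between 62.1 and 180.3 in male pools and between 1457.9 and 2011.4 in female pools. Median array signals were similar on both diets, 168 to 200 in control and 165 to 211 in low phosphorus pools on the 430A chip. Female pools had a higher median signal on the 430A chip than male pools (191 ± 12.6 and 179 ± 8.33, SD, n = 12 each), a gap that bears on the sex values below. On the 430A chip the 3′ to 5′ ratio of actin, a measure of RNA quality, was 1.39 ± 0.0799 in normal and 1.3 ± 0.0873 in Hyp pools (SD, n = 12 each). That of Gapdh differed in the other direction, at 0.723 ± 0.0391 in normal and 0.742 ± 0.0299 in Hyp pools. On the 430B chip the normal and Hyp means were 1.38 and 1.31 for actin, and 0.76 and 0.762 for Gapdh. The part of these ratios in the genotype results was not tested. Signals are linear intensities with no unit, comparable between arrays for 1 probe set and not between probe sets, and the number of arrays limits their precision.

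The first question was what 3 days of the low phosphorus diet did to each gene. Mdk and Itgb6 had about 2-fold higher signals on the low phosphorus diet, Cela1 a smaller difference in the same direction, and Tmem252 and Tcf24 lower signals. In these 5 genes the direction was the same in each of the 4 strata, that is, in normal males, normal females, Hyp males and Hyp females. Over all 18642 features tested, 144 (0.772%) passed an adjusted p of 0.05 for diet by limma, 78 higher and 66 lower. In 31 features (0.166%) the low phosphorus and control pools did not overlap in any of the 4 strata and differed the same way. Within normal pools 0.467% and within Hyp pools 0.15% of features passed an adjusted p of 0.05 for diet by limma. All these shares are the background of a contrast that chose the 5 genes, and nothing is read from the genes' own place in it.

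The control signal of Mdk was lowest in normal males. In normal males the 3 control pools had Mdk signals of 302, 314 and 314, and the 3 low phosphorus pools 960.1, 1150.2 and 1069.8. In normal females Mdk had 372, 419 and 555 on the control diet and 1059, 1268 and 918 on the low phosphorus diet. The highest of these normal control pools lay below the lowest of the low phosphorus pools, and the normal female pools were more scattered than the male ones. In Hyp males Mdk had 454, 571 and 538 on the control diet and 1443, 1334 and 1551 on the low phosphorus diet. In Hyp females it had 828, 817 and 723 against 1176, 1242 and 1234. Hyp females had the highest control signals of Mdk and the smallest diet difference, and the pools of both diets stayed apart in each stratum.

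The mean Mdk signal was 3.42-fold higher on the low phosphorus diet in normal males, 2.41-fold in normal females, 2.77-fold in Hyp males and 1.54-fold in Hyp females. On the log2 scale the diet difference of Mdk was 1.29 ± 0.07 (SE, 12 pools against 12), made up of 1.52 ± 0.10 in normal and 1.05 ± 0.10 in Hyp pools. The 4 control means of Mdk spread more widely in ratio than the 4 low phosphorus means. Ordered from high to low, Mdk had means of 1443 ± 109 (SD, n = 3 for each group) in Hyp male low phosphorus, 1218 ± 36 in Hyp female low phosphorus, 1082 ± 176 in normal female low phosphorus and 1060 ± 95.4 in normal male low phosphorus pools. The control groups followed with 789.3 ± 57.8 in Hyp females, 520.6 ± 60.4 in Hyp males, 448.7 ± 95.1 in normal females and 309.9 ± 6.9 in normal males. Neighbours whose pools overlapped were Hyp female and normal female on the low phosphorus diet, both normal low phosphorus groups, and Hyp male with normal female controls.

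**Figure D1:**
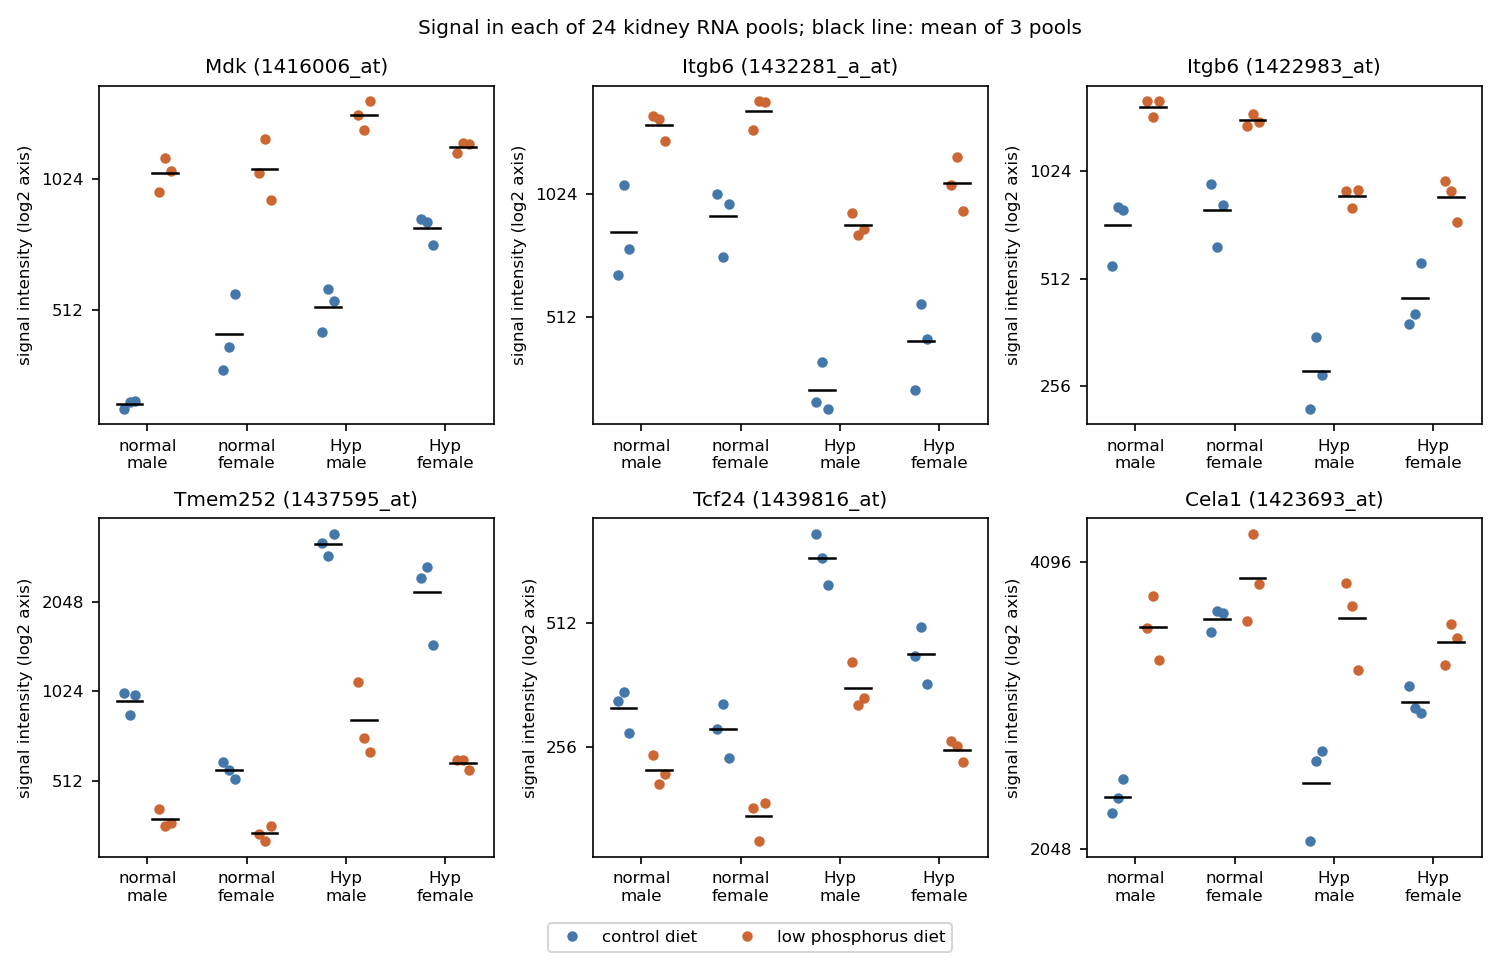
Signal intensity (log2 axis) of the 6 probe sets in each of the 24 pools, by genotype and sex, with control diet in blue and low phosphorus diet in orange; each black line is the mean of 3 pools. Mdk and Itgb6 points are higher and Tmem252 and Tcf24 points lower on the low phosphorus diet in each stratum, and the Cela1 pools of normal females overlap.

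Itgb6 had higher signals on the low phosphorus diet by both of its probe sets. By the brighter one (1432281_a_at), normal males had Itgb6 signals of 649.7, 1078 and 753 on the control diet and 1588, 1558 and 1382 on the low phosphorus diet. Normal females had 1023, 720.4 and 970.3 against 1468, 1725 and 1719.6. Control pools of normal mice were scattered, and even the highest of them lay below every normal pool on the low phosphorus diet. In Hyp males Itgb6 had 319, 399 and 306 on the control diet and 924, 814 and 842 on the low phosphorus diet. In Hyp females it had 341, 554 and 454 against 1077, 1259 and 932. Hyp control pools were the lowest of all, and Hyp pools on the low phosphorus diet reached the range of the normal control pools.

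The Itgb6 mean was 1.83-fold higher on the low phosphorus diet in normal males, 1.81-fold in normal females, 2.52-fold in Hyp males and 2.42-fold in Hyp females. As a log2 difference the Itgb6 diet value was 1.10 ± 0.09 (SE), being 0.88 ± 0.13 in normal and 1.32 ± 0.13 in Hyp pools. The second Itgb6 probe set (1422983_at) gave 1.14 ± 0.09, and 0.99 ± 0.13 for normal against 1.30 ± 0.13 for Hyp pools. Both probe sets therefore gave the same order of the genotypes, and they differed in the sexes. The second gave Hyp males 221, 353 and 276 on the control and 905, 808 and 910.0 on the low phosphorus diet, 3.08-fold higher in the mean. It gave Hyp females 382, 407 and 567 against 960.2, 902 and 738, 1.92-fold higher.

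Ordered from high to low, Itgb6 means by the brighter probe set were 1638 ± 147 (SD, n = 3 for each group) in normal female low phosphorus, 1510 ± 111 in normal male low phosphorus and 1089 ± 164 in Hyp female low phosphorus pools. Normal female controls at 904.4 ± 162, Hyp male low phosphorus pools at 859.8 ± 57.2 and normal male controls at 827 ± 223 followed. Hyp female controls at 449.3 ± 106 and Hyp male controls at 341.3 ± 50.4 were last. Of the neighbours in this order, only normal male and Hyp female low phosphorus pools, and normal male and Hyp female controls, had pools that did not overlap.

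Cela1 had the smallest diet difference of the 5 genes, and the value was larger in male than in female pools. In normal males Cela1 had 2238, 2317 and 2424 on the control and 3492, 3773 and 3238 on the low phosphorus diet. In Hyp males it had 2088, 2532 and 2596 against 3898, 3688 and 3156. In both genotypes the male pools of the diets were well apart. In normal females Cela1 had 3458, 3639 and 3619 against 3556, 4388 and 3889, and these overlapped. In Hyp females it had 3035, 2882 and 2848 against 3196, 3524 and 3414, which did not overlap.

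Cela1 was 1.51-fold higher in the mean on the low phosphorus diet in normal males, 1.49-fold in Hyp males, 1.1-fold in normal females and 1.16-fold in Hyp females. The log2 diet difference of Cela1 was 0.38 ± 0.05 (SE), and it was 0.36 ± 0.08 in normal and 0.39 ± 0.08 in Hyp mice. Mean Cela1 signals from high to low were 3944 ± 419 (SD, n = 3 for each group) in normal female low phosphorus, 3581 ± 383 in Hyp male low phosphorus, 3572 ± 99.5 in normal female control, 3501 ± 268 in normal male low phosphorus and 3378 ± 167 in Hyp female low phosphorus pools. Each of these overlapped its neighbour. The Hyp female controls (2922 ± 99.8) lay apart below them, and the Hyp male (2406 ± 276) and normal male controls (2326 ± 93.6), which overlapped, were lowest.

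Tmem252 had lower signals on the low phosphorus diet. In Hyp males Tmem252 had 3249.8, 2923 and 3484 on the control diet and 1104, 712 and 640.3 on the low phosphorus diet. In Hyp females it had 2477, 2700.5 and 1463 against 599, 603 and 556. These Hyp control pools were the highest of the series for this probe set, and 1 of them, Hyp female control replicate 3, was well below the other two. In normal males Tmem252 had 1008, 852 and 996 on the control and 411, 359 and 367 on the low phosphorus diet. In normal females it had 591, 556 and 519 against 339, 319.8 and 359.9. The diets did not overlap in any stratum, and the gap between them was smallest in normal females.

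Control over low phosphorus mean ratios of Tmem252 were 2.51 in normal males, 1.63 in normal females, 3.93 in Hyp males and 3.78 in Hyp females. The log2 diet difference of Tmem252 was -1.48 ± 0.11 (SE), reaching -1.02 ± 0.15 in normal and -1.94 ± 0.15 in Hyp mice. From high to low, Tmem252 means were 3219 ± 282 (SD, n = 3 for each group) in Hyp male control, 2214 ± 659 in Hyp female control, 951.8 ± 86.8 in normal male control, 818.8 ± 249 in Hyp male low phosphorus and 586 ± 26.1 in Hyp female low phosphorus pools. Normal female controls had 555.4 ± 36.1, normal male low phosphorus pools 379 ± 27.7 and normal female low phosphorus pools 339.7 ± 20.1. Neighbours with overlapping pools were normal male control with Hyp male low phosphorus, Hyp female low phosphorus with normal female control, and the normal low phosphorus groups with each other.

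Tcf24 followed the same order as Tmem252 at the top, with smaller differences. In Hyp males Tcf24 had 845, 737 and 633 on the control and 411, 325 and 336 on the low phosphorus diet. In Hyp females it had 427, 502 and 365 against 265, 257 and 235. Every Hyp control pool was above the Hyp low phosphorus pools of its sex. In normal males Tcf24 had 331, 348 and 277 against 245, 209 and 220.4. In normal females it had 284, 325 and 242 against 182, 151 and 188. Here too the diets were apart, by less than in Hyp pools.

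Control over low phosphorus mean ratios of Tcf24 were 1.42 in normal males, 1.63 in normal females, 2.07 in Hyp males and 1.71 in Hyp females. Its log2 diet difference was -0.75 ± 0.09 (SE), split into -0.60 ± 0.12 in normal and -0.90 ± 0.12 in Hyp mice. Tcf24 means from high to low were 738.4 ± 106 (SD, n = 3 for each group) in Hyp male control, 431.1 ± 68.3 in Hyp female control, 357.4 ± 47 in Hyp male low phosphorus, 318.8 ± 37.4 in normal male control and 283.5 ± 41.9 in normal female control pools. Hyp female low phosphorus pools had 252.6 ± 15.6, normal male low phosphorus pools 224.8 ± 18.6 and normal female low phosphorus pools 173.9 ± 19.7. Only the highest and the lowest group of Tcf24 were clear of their neighbours.

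**Figure D2:**
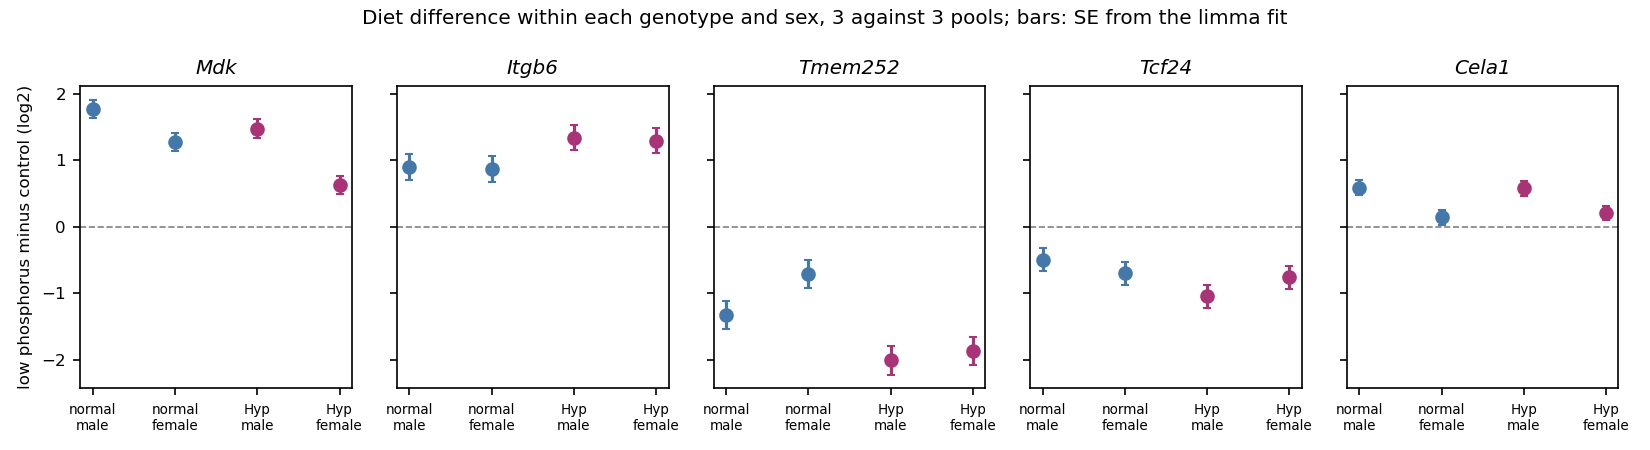
Log2 difference between low phosphorus and control pools of the 5 genes in normal males, normal females, Hyp males and Hyp females (3 pools against 3), with bars for the standard error of the limma fit. The values run from 1.77 for Mdk in normal males to -2.01 for Tmem252 in Hyp males, and none of them changes sign between strata.

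The diet differences of the genotypes were then set side by side. The diet difference in Hyp minus that in normal pools was -0.47 ± 0.14 (SE, log2) for Mdk, 0.43 ± 0.19 for Itgb6 (0.31 ± 0.19 by its second probe set), -0.92 ± 0.21 for Tmem252, -0.30 ± 0.17 for Tcf24 and 0.03 ± 0.11 for Cela1. These are descriptions, because the response in both genotypes was what chose the genes. Over all features, 3 (0.0161%) passed for this interaction by limma. The value of Mdk was smaller in Hyp pools and those of Itgb6, Tmem252 and Tcf24 larger, and the 95% intervals of Tcf24 (-0.666 to 0.0623), Cela1 (-0.196 to 0.254) and the second Itgb6 probe set (-0.0776 to 0.704) include 0. Hyp control means were nearer to the low phosphorus level than normal control means for Mdk, and farther from it for the other three.

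Hyp pools on the low phosphorus diet were also set against normal pools on the control diet. For Itgb6 this log2 difference was 0.18 (95% interval -0.0992 to 0.461), for Tmem252 -0.09 (-0.405 to 0.229) and for Tcf24 0.00 (-0.255 to 0.261). These values share their pools with the contrasts that chose the genes and are given with their spread and no test. Mdk was 1.84 higher and Cela1 0.27 higher in the Hyp low phosphorus pools.

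The second question was how Hyp kidneys differ from normal ones over both diets and sexes. The rule that chose the genes did not use this contrast, but its values for Itgb6 and Tmem252 had been seen by then. Tmem252 and Tcf24 were higher in Hyp, Itgb6 was lower, Mdk was higher, and Cela1 did not pass the test. Tmem252 rose by 1.39 ± 0.11 on the log2 scale (SE, 12 pools against 12, 2.62-fold, adjusted p = 1.86e-07, limma) and Tcf24 by 0.75 ± 0.09 (1.69-fold, adjusted p = 2.66e-05, limma). Itgb6 fell by 0.92 ± 0.09 (1.89-fold lower, adjusted p = 3.55e-06, limma), and its second probe set gave -0.93 ± 0.09 (adjusted p = 2.46e-06, limma). Mdk rose by 0.55 ± 0.07 (1.46-fold, adjusted p = 4.51e-05, limma). Cela1 differed by -0.11 ± 0.05 (adjusted p = 0.488, limma).

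So 4 of the 5 genes passed for genotype, where 363 of all features (1.95%) did. The Hyp and normal pools did not overlap in 4 of 4 strata for Itgb6, Tmem252 and Tcf24, in 3 for Mdk and in 2 for Cela1. Over all features, 76 (0.408%) were apart in 4 of 4 strata in 1 direction. The one stratum in which Mdk overlapped was that of females on the low phosphorus diet, where normal pools reached 1268 and Hyp pools began at 1176. The Cela1 mean was lower in Hyp pools in both female strata and slightly higher in both male strata. For Itgb6 and Tmem252, the genotype values had been seen before the genes were chosen, so their calls are no independent test.

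All 4 genes passed in each sex by limma, and for Itgb6 and Tmem252 these calls too are no independent test. In males Tmem252 differed by 1.42 ± 0.15 (SE), Tcf24 by 0.94 ± 0.12, Itgb6 by -1.03 ± 0.13 and Mdk by 0.59 ± 0.10 (adjusted p between 2.19e-05 and 0.00184, where 1.07% of features passed). In females these values were 1.37 ± 0.15, 0.57 ± 0.12, -0.81 ± 0.13 and 0.51 ± 0.10 (adjusted p between 6.03e-05 and 0.032, where 0.692% passed). Cela1 passed in neither sex, with 0.04 ± 0.08 in males (adjusted p = 0.963) and -0.25 ± 0.08 in females (adjusted p = 0.182). The test of the difference between the sexes, the genotype by sex interaction, called none of the 5 genes (adjusted p between 0.688 and 0.986), and 15 of all features (0.0805%). Its largest value among them was 0.36 ± 0.17 for Tcf24 (95% interval -0.00147 to 0.727). For Cela1 it was 0.29 ± 0.11, with a 95% interval above 0 before adjustment (0.0653 to 0.516).

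By diet, the genotype difference of Mdk was 0.79 ± 0.10 on control and 0.31 ± 0.10 on low phosphorus diet. That of Itgb6 was -1.14 ± 0.13 and -0.70 ± 0.13, that of Tmem252 1.85 ± 0.15 and 0.93 ± 0.15, and that of Tcf24 0.91 ± 0.12 and 0.60 ± 0.12. In each of these 4 genes the gap between the genotypes was smaller on the low phosphorus diet. These values share their pools with the diet contrasts and are given without a test.

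In Itgb6, Tmem252 and Tcf24 the Hyp difference and the low phosphorus difference had opposite signs, and in Mdk they had the same sign. The plot of all features by both differences shows these signs, and its vertical axis is the contrast that chose the genes.

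**Figure D3:**
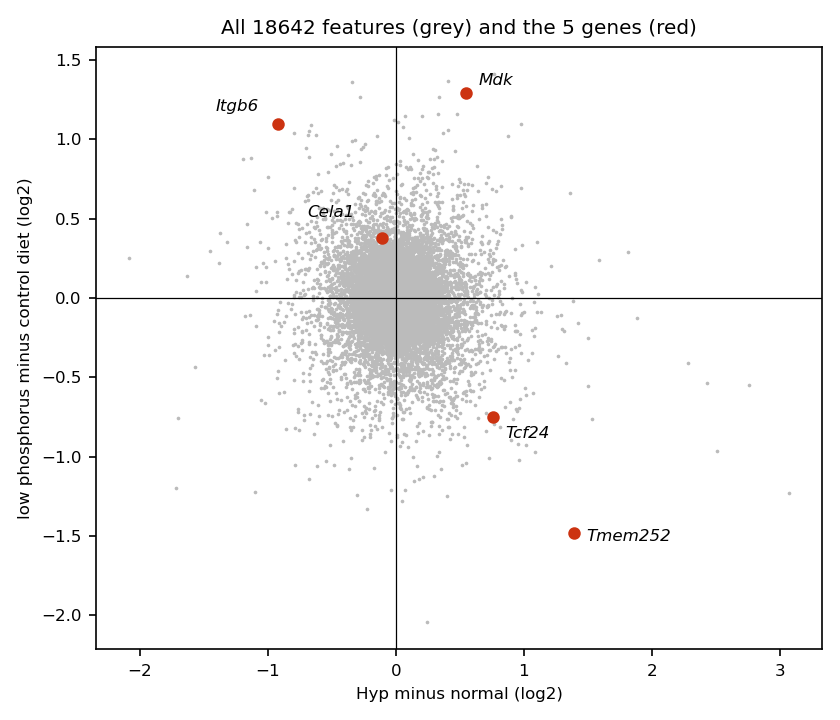
Log2 difference between Hyp and normal pools (horizontal axis) against that between low phosphorus and control pools (vertical axis) for all 18642 features in grey and the 5 genes in red. Tmem252 and Tcf24 lie at the lower right, Itgb6 at the upper left, Mdk at the upper right, and Cela1 above the centre.

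The third question was whether the genes differ between males and females. By limma, 2954 features (15.8%) passed for sex, 1131 higher and 1823 lower in males, so a call for sex is common in these arrays. With arrays scaled to a common median this split turned to 1697 higher and 970 lower. Tmem252 was higher in males by 0.49 ± 0.11 (SE, log2, adjusted p = 0.00312, limma) and Tcf24 by 0.46 ± 0.09 (adjusted p = 9.98e-04, limma). Cela1 was lower in males by -0.25 ± 0.05 (adjusted p = 0.00257, limma) and Mdk by -0.22 ± 0.07 (adjusted p = 0.0313, limma). With common-median scaling both lost their call, at -0.15 (adjusted p = 0.16) for the Cela1 sex difference and -0.13 (adjusted p = 0.349) for the Mdk sex difference. Itgb6 did not pass, at -0.24 ± 0.09 (adjusted p = 0.0918, limma).

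The diets were then taken apart. On the control diet Mdk was lower in males by -0.56 ± 0.10 (adjusted p = 6.33e-04, limma) and on the low phosphorus diet the value was 0.11 ± 0.10 (adjusted p = 0.583). Cela1 had the same shape, with -0.45 ± 0.08 on control (adjusted p = 4.13e-04, limma) and -0.04 ± 0.08 on low phosphorus diet (adjusted p = 0.813). Tmem252 passed on the control diet at 0.68 ± 0.15 (adjusted p = 0.00664, limma) and not on the low phosphorus diet at 0.30 ± 0.15 (adjusted p = 0.267). Tcf24 passed on both, at 0.48 ± 0.12 and 0.43 ± 0.12 (adjusted p = 0.0197 and 0.0329, limma). Over all features 7.97% passed for sex on the control and 8.34% on the low phosphorus diet. The sex values by diet were not examined under common-median scaling, with which the Mdk and Cela1 sex calls over both diets were lost.

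Passing on one diet and not on the other is no test of the difference between the diets, which is the diet by sex interaction. For Mdk the diet difference was 1.62 ± 0.10 (SE, log2) in males and 0.95 ± 0.10 in females, an interaction of 0.67 ± 0.14 (adjusted p = 0.196, limma). For Cela1 it was 0.58 ± 0.08 in males and 0.17 ± 0.08 in females, an interaction of 0.41 ± 0.11 (adjusted p = 0.49, limma). Both 95% intervals lay above 0 before adjustment, at 0.38 to 0.959 for Mdk and 0.182 to 0.633 for Cela1. After adjustment over all features neither passed, and neither did any other feature (0 of 18642, 0%), while 1019 had an unadjusted p under 0.05. Tmem252 had -0.38 ± 0.21 (adjusted p = 0.905), Tcf24 -0.04 ± 0.17 and Itgb6 0.04 ± 0.19 (adjusted p = 0.988 for each). The second Itgb6 probe set gave 0.48 ± 0.19 (adjusted p = 0.896), so the 2 probe sets disagree on the size of this value. In the 3-way interaction of genotype, diet and sex all 5 genes had an adjusted p of 0.999 by limma, 0 features passed, and 724 had an unadjusted p under 0.05.

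**Figure D4:**
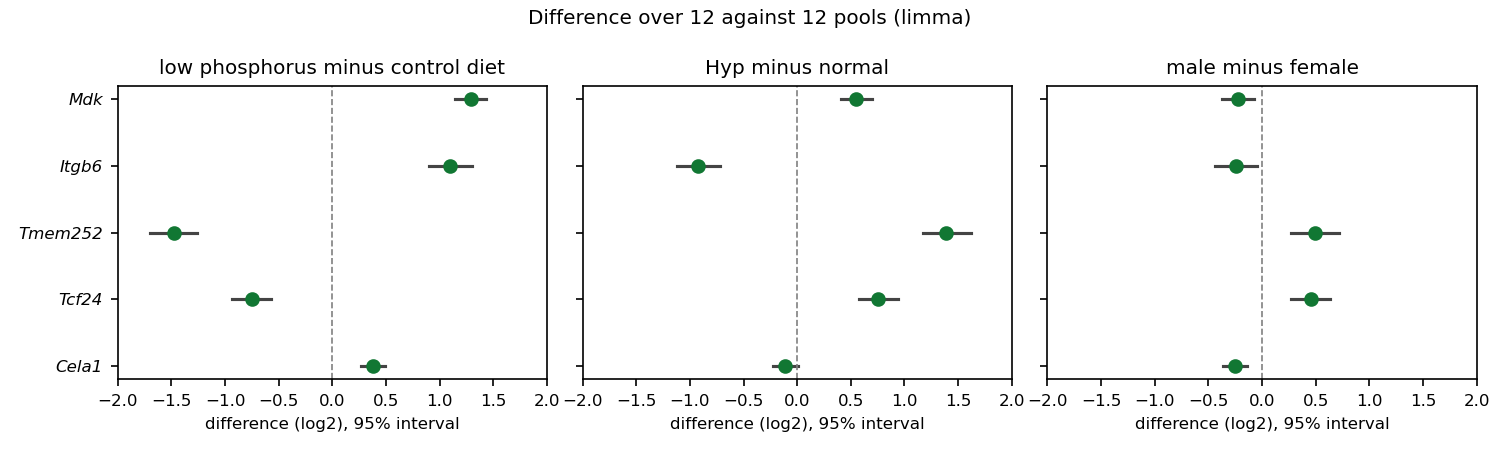
Log2 differences of the 5 genes for diet (low phosphorus minus control), genotype (Hyp minus normal) and sex (male minus female), 12 pools against 12, with 95% intervals from limma. The diet panel is a description of the contrast that chose the genes; in the genotype panel only the Cela1 interval reaches 0.

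Among themselves the genes fell into patterns that differed over the 24 pools. Tmem252 and Tcf24 varied together (Pearson r = 0.938), and Itgb6 varied inversely with both (r = -0.939 with Tmem252 and -0.893 with Tcf24). Mdk had smaller values with them, at r = 0.403 with Itgb6, -0.365 with Tmem252 and -0.36 with Tcf24. Cela1 lay between, at 0.678 with Mdk, 0.675 with Itgb6, -0.701 with Tmem252 and -0.691 with Tcf24. All points come from the same 8 groups, so these values include the differences between group means. After removal of each group's mean, r was -0.0312 for Itgb6 with Tmem252 and 0.145 for Itgb6 with Tcf24. It was 0.548 for Tmem252 with Tcf24, which were read from the same 430B arrays. For Mdk it was -0.442 with Tcf24, 0.404 with Cela1, 0.105 with Itgb6 and -0.089 with Tmem252. The remaining pairs had 0.144 for Itgb6, 0.245 for Tmem252 and -0.306 for Tcf24, each with Cela1.

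**Figure D5:**
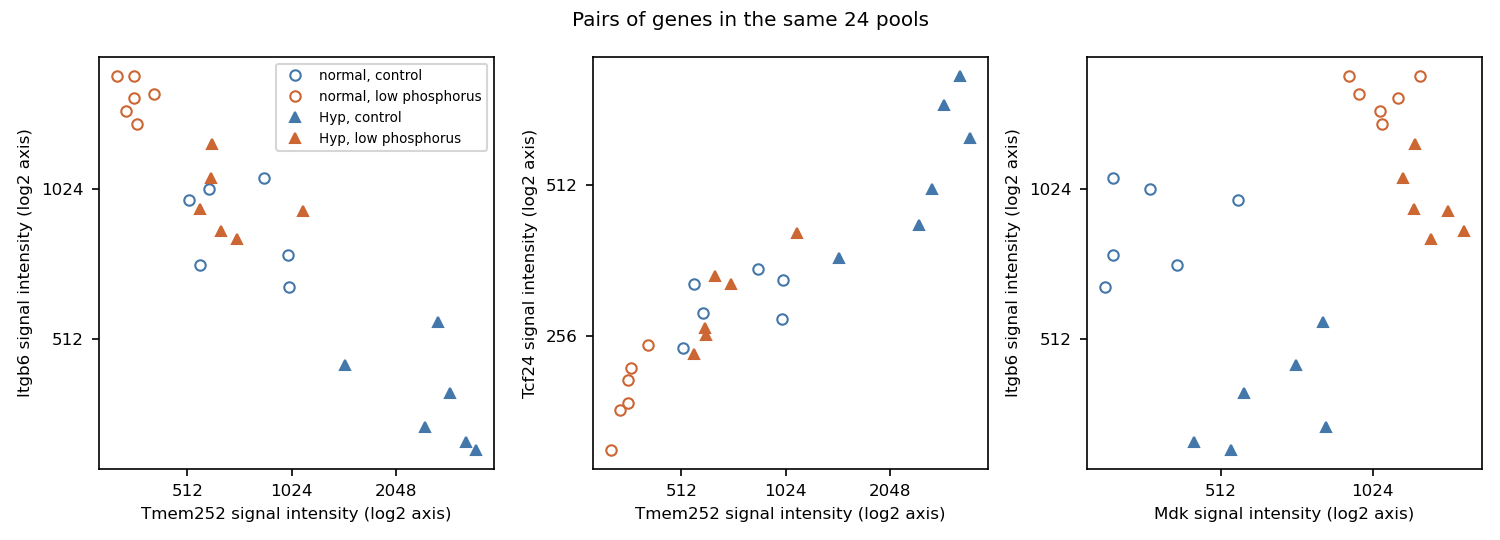
Signal intensity (log2 axes) of Itgb6 against Tmem252, Tcf24 against Tmem252 and Itgb6 against Mdk in the 24 pools; circles are normal and triangles Hyp pools, blue is control and orange low phosphorus diet. In the first panel Hyp low phosphorus pools lie among the normal control pools, and in the third they lie to the right of them.

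For each of the 5 genes, those with the most similar pattern over the 24 pools were named, leaving out the 5 genes themselves. Nearest to Mdk were Dpp7, a lysosomal dipeptidase gene (r = 0.934), Slc26a4, the chloride-bicarbonate exchanger pendrin of intercalated cells (0.916), Slc4a9, an anion exchanger of the same cells (0.836), and Aldh1l2, a mitochondrial folate enzyme (0.789). Tfrc, the transferrin receptor gene, and the glutamine transporter gene Slc38a3 were the most opposed (-0.855 and -0.804). Dpp7 and Slc26a4 kept an r of 0.568 and 0.469 with Mdk after removal of group means, and Slc4a9 and Aldh1l2 had 0.115 and 0.135. Slc38a3 then had -0.422, and Tfrc had 0.327, the reverse of its sign over all pools.

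Nearest to Itgb6 were Acox2, a peroxisomal oxidase of bile acid synthesis (0.847), the creatine transporter gene Slc6a8 (0.837), the nuclear pore gene Nup210 (0.826) and Slc5a2, the glucose transporter SGLT2 of the early proximal tubule (0.816). The Fc receptor gene Fcgr2b and the cytochrome gene Cyp2j11 were the most opposed (-0.842 and -0.841). With group means removed, r with Itgb6 was 0.0135 for Acox2, 0.369 for Slc6a8, 0.451 for Nup210 and 0.129 for Slc5a2. For Fcgr2b and Cyp2j11 it was -0.215 and -0.196. Nearest to Tmem252 were Cyp2j11 (0.853), the aldehyde dehydrogenase gene Aldh1a7 (0.83), Kmo of the kynurenine pathway (0.816) and Ttr, the plasma carrier transthyretin (0.815). The most opposed were Slc6a8 and Acox2 (-0.874 and -0.854), the same genes that were near Itgb6, which itself had -0.939 with Tmem252. After removal of group means, r with Tmem252 was 0.275 for Cyp2j11, -0.131 for Aldh1a7, 0.282 for Kmo and 0.462 for Ttr. For Slc6a8 and Acox2 it was -0.675 and 0.177.

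Nearest to Tcf24 were Aldh1a7 (0.875), Cyp2j11 (0.859), Fcgr2b (0.823) and Methig1 (0.818), and opposed were the sodium-phosphate cotransporter gene Slc34a3 (-0.865) and Slc6a8 (-0.842). Methig1 kept the highest r with Tcf24 after removal of group means (0.718). Cyp2j11 and Fcgr2b then had 0.153 and 0.152, Slc34a3 and Slc6a8 -0.316 and -0.223, and Aldh1a7 turned sign to -0.358. Nearest to Cela1 were the methyltransferase gene Smyd2 (0.872), the galectin gene Lgals1 (0.848), the sulfotransferase gene Chst15 (0.847) and the amino acid transporter gene Slc7a7 (0.826), with Cystm1 (-0.86) and Fcgr2b (-0.774) opposed. With group means removed, r with Cela1 was 0.635 for Smyd2, 0.225 for Lgals1, 0.611 for Chst15 and 0.0115 for Slc7a7. For Cystm1 and Fcgr2b it was -0.547 and -0.545. These genes were picked out of all named genes for their r, so the values carry no test.

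The partners that these proteins are known to work with were examined as lists. No list held a gene that passed by limma for diet over both genotypes or for genotype. Within normal pools 1 gene, Itgb1, which is on the midkine and the αv lists, fell on the low phosphorus diet, and within Hyp pools none of the 5 lists held a called gene. Each list's median diet difference was within 0.1 of 0 (log2), beside 0.00644 for all features. Of 18 receptors and relatives of midkine, 14 were measured. None passed for diet (0 rose, 0 fell, 1 at an unadjusted p under 0.05), and their median diet difference was 0.0157. The smallest adjusted p belonged to the integrin β1 gene Itgb1, at -0.30 ± 0.07 (SE, adjusted p = 0.0599, limma), with -0.47 ± 0.10 in normal pools (adjusted p = 0.0435) and -0.13 ± 0.10 in Hyp pools (adjusted p = 0.929). The genotype by diet interaction of Itgb1 was 0.34 ± 0.15 (adjusted p = 0.899), so its diet difference was not shown to differ between the genotypes. Next were the syndecan gene Sdc2 (-0.14 ± 0.08), the nucleolin gene Ncl (0.16 ± 0.10) and the lipoprotein receptor gene Lrp8 (-0.24 ± 0.16). Ptn, the closest relative of Mdk, had -0.07 ± 0.10 (adjusted p = 0.912).

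Of 24 genes of αv integrins and TGFβ activation, 15 were measured and none passed for diet (3 at an unadjusted p under 0.05, median 0.0154). Itgav, which encodes the αv partner of the β6 subunit, had 0.04 ± 0.06 (adjusted p = 0.889, limma), against 1.10 ± 0.09 for Itgb6. Tgfb1, which encodes the TGFβ that this integrin releases, had 0.00 ± 0.10 (adjusted p = 0.992). Besides Itgb1, the smallest adjusted p were those of the latent TGFβ binding protein gene Ltbp4 (0.30 ± 0.09, adjusted p = 0.163), the inhibitory Smad7 (0.31 ± 0.14, adjusted p = 0.483) and Itgb5 (0.14 ± 0.08), another partner of αv.

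Of 16 basic helix-loop-helix partners and inhibitors, 10 were measured and none passed for diet (3 at an unadjusted p under 0.05, median -0.0572). The inhibitor genes Id1 (-0.30 ± 0.09, adjusted p = 0.21, limma), Id3 (-0.20 ± 0.08) and Id4 (-0.09 ± 0.11) and the common partner gene Tcf3 (0.30 ± 0.13) had the smallest adjusted p. Of 18 elastases, related proteases and their inhibitors, 5 were measured and none passed for diet (1 at an unadjusted p under 0.05, median 0.0997). Prss2, a trypsinogen gene, had 0.60 ± 0.29 (adjusted p = 0.526), the protease inhibitor genes Slpi -0.34 ± 0.18 and Serpina1b -0.49 ± 0.44, and the elastin gene Eln 0.10 ± 0.14. Of 9 genes around Tmem252 on its chromosome, 4 were measured and none passed (0 at an unadjusted p under 0.05, median -0.0306). Among these 4, Fam122a and Pgm5 had -0.08 ± 0.07 and 0.17 ± 0.21, and Apba1 and Pip5k1b -0.12 ± 0.15 and 0.02 ± 0.14. Over all features, 1772 had an unadjusted p under 0.05 for diet.

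For sex the same lists did hold called genes, beside a background of 15.8%. In the midkine list Sdc2 was higher in males by 0.49, and Itga6, Lrp8 and Lrp1 were lower (-1.03, -0.96 and -0.39). In the αv list Fn1, Tnc, Itgav and Smad4 were lower in males (-0.69, -0.32, -0.29 and -0.23). In the helix-loop-helix list Id1, Id4, Id3, Tcf21 and Id2 were lower in males (-0.82, -0.78, -0.43, -0.31 and -0.29), whereas Tcf24 was higher. Serpina1b was higher in males by 3.71, and Pgm5 and Pip5k1b were lower (-0.85 and -0.41). Common-median scaling moved the median sex difference of all features from -0.0525 to 0.0186, and the list genes were not recomputed under it.

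Markers of the cell types in the kidney were set beside these results. Of 6 intercalated cell markers measured, Slc26a4 (0.66 ± 0.05, adjusted p = 3.97e-07, limma) and Slc4a9 (0.46 ± 0.08, adjusted p = 0.00471) rose on the low phosphorus diet. The summed signal of the 6 ranged from 2631 to 4295 in control and from 3248 to 5403 in low phosphorus pools. These ranges overlapped. Sums here and below add signals of different probe sets, so the brightest probe sets weigh most in them. For genotype, 3 of the 6 (Slc26a4, Slc4a1 and Atp6v0d2) rose in Hyp pools, with sums of 2631 to 4574 in normal and 3701 to 5403 in Hyp pools. Slc26a4 and Slc4a9 had the direction of Mdk in both contrasts, though Slc4a9 did not pass for genotype (0.31 ± 0.08, adjusted p = 0.0515, limma). Slc4a1 did not rise on the diet, at -0.10 ± 0.12 in normal and -0.10 ± 0.12 in Hyp pools. The part of the intercalated cell markers in the Mdk result was not tested.

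All 10 proximal tubule markers were measured. On the low phosphorus diet Slc5a2 rose (0.30 ± 0.06) and Slc22a6 fell (-0.23 ± 0.05), and the sums were 70910 to 94420 in control and 78090 to 98360 in low phosphorus pools. In Hyp pools Slc5a2 (-0.64), Slc34a1 (-0.30) and Slc22a6 (-0.23) fell and Slc22a8 rose (0.31), with sums of 75500 to 98360 in normal and 70910 to 84770 in Hyp pools. Slc5a2 moved with Itgb6 in both contrasts. The part of these markers in the Itgb6 result was not tested. Of 7 distal and connecting tubule markers, S100g (-1.22) and Calb1 (-0.77) fell on the low phosphorus diet, with sums of 43370 to 65870 in control and 36450 to 59780 in low phosphorus pools. The S100g diet difference was 0.08 ± 0.13 among normal pools (adjusted p = 0.911). Among Hyp pools it was -2.52 ± 0.13 (adjusted p = 5.05e-10), and this difference between the genotypes passed (-2.60 ± 0.19, adjusted p = 1.74e-07). That of Calb1 was -0.45 ± 0.11 among normal pools (adjusted p = 0.08) and -1.10 ± 0.11 among Hyp pools (adjusted p = 7.85e-06), with an interaction of -0.65 ± 0.15 (adjusted p = 0.353). Pvalb rose on the diet among Hyp pools (0.51 ± 0.10, adjusted p = 0.0447). Tmem252 and Tcf24 were lower on the diet in both genotypes and higher in Hyp pools. The genotype values of S100g and Calb1, averaged over both diets, were -1.10 and -0.33. By its interaction, the S100g genotype value differed between the diets, so the average does not describe each diet. The part of these markers in the results was not tested.

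Of 3 liver genes measured, Ttr and Alb fell on the low phosphorus diet (-1.23 and -0.78), and Ttr rose in Hyp pools (3.07), as Tmem252 and Tcf24 did. Its diet difference was -1.84 ± 0.12 among normal pools (adjusted p = 1.59e-08) and -0.62 ± 0.12 among Hyp pools (adjusted p = 0.042), with an interaction of 1.22 ± 0.17 (adjusted p = 0.00392). The summed signal of the 3 ranged from 3160 to 31390 in control and from 1226 to 24820 in low phosphorus pools, and from 1226 to 7798 in normal and 10770 to 31390 in Hyp pools. Of 6 injured tubule markers measured, none passed for diet, and Clu (0.30) and Fga (0.47) rose in Hyp pools, with sums of 4746 to 7250 in normal and 6215 to 8365 in Hyp pools. Of 3 proliferation genes measured, Cdk1 rose on the low phosphorus diet (0.64), with sums of 194.1 to 389.1 in control and 310.3 to 527.8 in low phosphorus pools. The part of these genes in the results was not tested. No marker of thick ascending limb (6 measured), principal cells (6), leukocytes (6), endothelium (6), smooth muscle and fibroblasts (5), podocytes (3), adrenal gland (3), fat (3) or red blood cells (1) passed for diet by limma. For genotype, Kcnj1 of the thick ascending limb rose (0.24), Car3 of the fat list fell (-1.45), and of the distal markers Slc12a3 rose (0.50) and Pvalb fell (-0.31) besides S100g and Calb1.

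Cela1 belongs to a family best known from the pancreas, so pancreas genes were checked. Of 11 acinar genes 3 were measured and none passed for diet or genotype. On this list Cpa1, Cpb1, Cela2a and Reg1 never exceeded signals of 11, 17.3, 75.7 and 139.4, below the median on 24 of 24 arrays. Others of the list did exceed the median in some pools, by the probe set with the most such arrays Cela3b on 12 arrays, Cel on 9, Prss2 on 5 and Ctrb1 on 1. The part of these genes in the Cela1 result was not tested. The summed signal of the 3 measured acinar genes was 230.2 to 722.9 in control and 360.8 to 734.1 in low phosphorus pools.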

How the data were processed

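The authors deposited a linear signal intensity for every probe set of each array; GCOS 1.2 is named for it in the submitters' processing notes. Which expression algorithm, scaling target and genome build they used is not given in the sources used here. RNA was extracted with TRIzol and labelled with biotin, per the labels' protocols. Probe sets were named through the platform's annotation, updated by Entrez identifier; of 45137 probe sets, 35041 had 1 symbol, 936 several and 9160 none. A probe set was kept if it exceeded its array's median on at least 3 of 24 arrays. A gene with several kept probe sets was read from the one of highest mean log2 intensity, with the 430A chip first, leaving 18642 features.

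Intensities below 1 were set to 1 before log2 was taken. Group means of the 8 groups were estimated by limma 3.58.1 (R 4.3.3), and contrasts weighted groups equally. p-values were adjusted over both chips by the Benjamini-Hochberg method, with a threshold of 0.05, and all adjusted p-values are from this fit. The script was tested on simulated data. No p is given for contrasts that chose the genes. The genes, lists and alternatives were chosen with earlier results of these data known. Named besides the 5 genes are, for each, the 4 genes with the highest and the 2 with the lowest Pearson r over 24 pools, up to 4 list members with the smallest adjusted p for diet, and all called members of lists that held 5 or fewer; Ptn, Itgav and Tgfb1 were added after their values were seen. Genes on pathway lists exclude the 5 genes themselves. Series numbers 1 to 3 recur in every group. Deviations of same-numbered pools had a median r of 0.0627 on the 430A and 0.0221 on the 430B chip, with other numbers at -0.0354 and -0.0107. On the 430A chip 31 of 84 same-numbered pairs were over 0.1, and on the 430B chip 0 of 84. The numbers were not used as pairs in the main fit. Alternatives tried were a pseudocount of 32, no filter, common-median scaling, quantile normalization, adjustment within each chip, series number as a block, the second Itgb6 probe set, and leaving out each of 24 pools. Sequences came from RefSeq tables and were used only as printed.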

Additional observations from a re-analysis of the deposited data

How the results depend on the processing

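The diet and genotype values of the 5 genes kept their direction and, for genotype, their side of the threshold in 151 of 151 alternatives each. For sex the direction held in 151 of 151, and the call in 137. The Mdk sex difference of -0.22 lost its call with no filter (-0.22, adjusted p = 0.0584) and with common-median scaling (-0.13), as did the Cela1 sex difference with that scaling (-0.15). Leaving out 1 pool gave -0.26 to -0.18 for the Mdk sex difference. Its call was lost without any 1 of 8 pools: normal male control 1, normal male low phosphorus 1, normal female control 3, normal female low phosphorus 2, Hyp male control 1, Hyp male low phosphorus 2, Hyp female control 2 and Hyp female low phosphorus 2. The Itgb6 sex difference ranged from -0.30 to -0.20 and passed without normal male control 2, normal female control 2 or Hyp female control 1. Interaction values that were near 0 turned sign. The genotype by sex value of Tmem252 was -0.055 with quantile normalization and -0.089 to 0.13 when 1 pool was left out, and the genotype by diet value of Cela1 was -0.029 with common-median scaling and -0.020 to 0.073 when 1 pool was left out. Diet by sex values then ranged from -0.044 to 0.14 for Itgb6 and from -0.099 to 0.015 for Tcf24. The genotype by diet value of Tcf24 was -0.49 with common-median scaling. Counts over all features moved more. With no filter, diet calls fell from 144 to 94, those in normal pools from 87 to 47, and diet by sex calls went from 0 to 1. Common-median scaling gave 57 in normal pools, and in Hyp pools turned the share of higher calls from 42.9% to 21.4%. Leaving out 1 pool gave 110 to 140 diet calls, 52 to 95 in normal pools (lowest without normal female control 1, 57 without normal female control 2 or normal male control 1), 18 to 24 in Hyp pools (18 without Hyp male low phosphorus 1 or 2 or Hyp female low phosphorus 3), 13 to 24 for genotype by sex (24 without Hyp female control 1), 3 to 5 for genotype by diet (5 without normal female control 3), 0 to 1 for diet by sex and 0 to 1 for the 3-way interaction. The causes were not tested. With series number as a replicate block no call changed for any of the 5 genes, and counts were 185 for diet, 112 and 33 in normal and Hyp pools, 438 for genotype and 3250 for sex. On the 430A chip 16 of 24 pools, and on the 430B chip 21 of 24, were closest to pools of their own number, a hint from the data and not from the design. Depth does not apply to arrays, and detection calls were not used here.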
